A study of Mus musculus with 6 samples.

Results

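The interzone of Tgfbr2Prx1KO mutant mouse limbs was compared with the growth plate cartilage of the same mutants, to describe what still separates joint from cartilage without the TGF-beta type II receptor. The arrays were chosen by their titles, which name tissue and genotype, and they were 2 of the 6 arrays of the series, 1 on each side. The study measured gene expression on one-colour microarrays in autopods, the hand and foot plates, at stage E14.5 of embryonic development. Cells of the interzone, of the neighbouring growth plates and of the tissue between the digits were cut out of frozen sections by laser capture, and the RNA was amplified before labelling. The mutant interzone and the mutant growth plate chondrocytes carried the genotype Tgfbr2Prx1KO on a C57BL/6 background. The wild-type interzone and wild-type growth plate chondrocytes came from littermates of the same age and background and formed the control pair. Interdigital tissue of both genotypes is cited only as a further level. By convention the name stands for a Prx1-driven deletion of Tgfbr2, and the Prx1 driver is active in limb mesenchyme, so that muscle, blood, vessel, nerve and epidermal cells are outside it. The labels name 2 embryos of each genotype. They do not say how many embryos or cells stand behind an array, or which part of Tgfbr2 was removed.

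The interzone is the band of flattened mesenchymal cells that forms across a cartilage condensation where a joint will be. Its cells leave the chondrocyte programme and express the growth factor gene Gdf5 and several Wnt genes, whereas the cells beside it continue as growth plate chondrocytes, secrete a matrix of type II collagen and aggrecan under the transcription factor Sox9, and mature towards hypertrophy under the control of Indian hedgehog and parathyroid hormone-related protein. The receptor encoded by Tgfbr2 binds TGF-beta ligands and signals through Smad2 and Smad3.

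Of 19512 genes on the array, 16611 were well above background on both mutant arrays, and these are called measured. A level is the log2 processed signal minus the 75th percentile of the array, and a difference is the interzone level minus the growth plate level, so that 1 is 2-fold. Spots well above background made up 77.3% of the mutant interzone array and 81.8% of the mutant growth plate array, against 83.1% of the control interzone array and 72.3% of the control growth plate array, the lowest of the 6. Repeated spots of a probe had a median SD of 0.07 on the mutant interzone array and 0.10 on the mutant growth plate array. Different probes of a gene disagreed more, with a median SD of 0.98 between their differences. The mutant interzone array shared a slide with the 3 control arrays, and the mutant growth plate array lay on the other slide, so that tissue and slide cannot be told apart in the mutant pair. The control pair lay on 1 slide. With 1 array a group, replicate error is unknown and no test was run. Xist had levels of -5.56 and -5.78 in mutant interzone and mutant growth plate, against 3.02 and 3.97 in the control tissues, and 4 Y-linked genes were well above background on both mutant arrays, so the mutant arrays resembled each other in sex-linked genes and differed from the controls.

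Many genes still differed between joint and cartilage tissue in the mutant. At least 2-fold higher in mutant interzone were 3512 genes (21.1%), and 3039 (18.3%) were at least 2-fold lower. In the control pair 4122 of 16321 genes (25.3%) were higher in interzone and 3819 (23.4%) were lower. The SD of the differences was 1.56 in the mutant pair and 2.00 in the control pair, and the medians were 0.16 and -0.10. Of the 4153 genes with the highest mean level 20.9% passed 2-fold in either direction, against 45.0% of the 4153 dimmest. The balance of the counts moved with the background correction. Of the genes past 2-fold, 53.6% were higher in mutant interzone as processed here, and 77.5% under another background correction, normexp, which moved the median of all genes to 0.47.

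The probes of the targeted gene disagreed. The brightest Tgfbr2 probe had a level of 2.22 in mutant interzone and 1.20 in mutant growth plate, against 2.42 in control interzone and -2.42 in control growth plate. The interzone level was the higher of each pair, by 1.03 in the mutant and 4.84 in the control. Another Tgfbr2 probe was higher in mutant interzone by 2.11. The remaining one went the other way, at -8.12 and not well above background in mutant interzone, against -5.15 and well above background in mutant growth plate. A probe outside the deleted part checks nothing about the deletion, and where the probe lies against it was not examined.

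Gdf5, the marker gene of the interzone, was still higher there in the mutant. Its level was 2.08 in mutant interzone and 0.21 in mutant growth plate, a difference of 1.87 or 3.65-fold, against 4.33 and 2.17 in the control tissues, a difference of 2.16. The 2 mutant levels were each lower than the control level of their own tissue, while the step between tissues was of similar size as scaled here. That similarity depends on the scaling. With each array centred on its median, the median of all genes moved from -0.10 to -1.33 in the control pair and from 0.16 to 0.32 in the mutant pair. Each gene moved by the same amount, so the control step of Gdf5 became smaller than the mutant step. Interdigital tissue of the mutant, at 2.37, was above the mutant interzone, whereas interdigital tissue of the control, at 1.20, was below both control tissues.

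Col2a1, which encodes the main cartilage collagen, did not mark the mutant growth plate. Its level was 5.74 in mutant interzone and 5.43 in mutant growth plate, a difference of 0.31, against 6.55 and 7.96 in the control tissues, a difference of -1.41. The other measured probe gave 0.30 in the mutant pair. The remaining probe, dim in the mutant, went the other way. It was at -8.73 and not well above background in mutant interzone, against -6.37 and well above background in mutant growth plate. Its control difference was -2.38. By the brightest probe, interdigital tissue of the mutant stood at 5.38, close to the mutant growth plate. By the 2 bright probes, then, the array labelled mutant growth plate chondrocyte was not set apart from the other mutant tissues. The name mutant growth plate is kept below for what the label says.

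**Figure D1:**
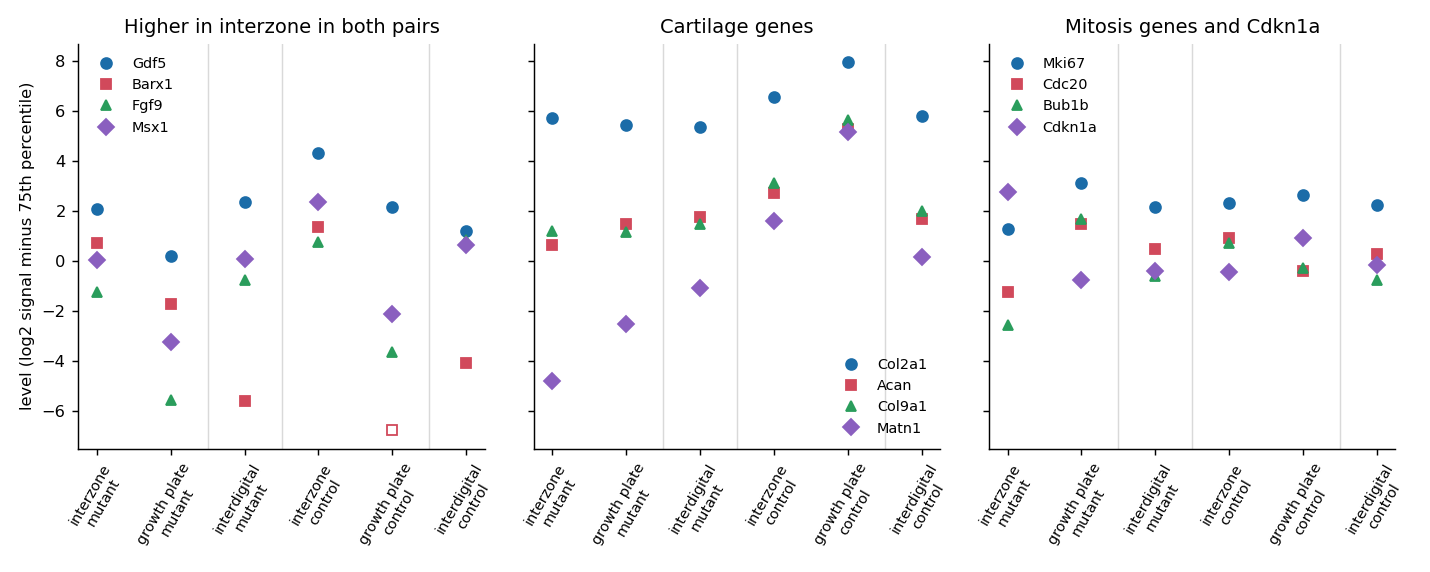
Levels (log2 signal minus the array's 75th percentile, y axis) of 4 genes shown because they were higher in interzone in both pairs, 4 cartilage genes and 4 cell cycle genes on each of the 6 arrays (x axis). Each point is 1 gene on 1 array, and the open point is not well above background. Of the first 4, Gdf5 and Barx1 belong to the joint list, and Fgf9 is at least as high in interdigital tissue as in interzone in both genotypes. The cartilage genes are highest on the control growth plate array, and Cdkn1a is highest on the mutant interzone array.

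The joint genes as a group were not set apart from all genes in the mutant pair. Of the 24 genes listed for interzone and joint, 23 were on the array and 22 were measured. In mutant interzone 4 passed 2-fold upwards and 3 downwards, shares near or below the 21.1% and 18.3% of all genes. The median was 0.35 beside 0.16 for all genes, against 9 higher and 2 lower of 21 in the control pair, with a median of 0.62. The control values moved with the scaling. With each array centred on its median, 5 were higher and 7 lower in control interzone, with a median of -0.60 beside -1.33 for all genes. The mutant median was then 0.50. The homeobox gene Barx1 had levels of 0.73 in mutant interzone and -1.71 in mutant growth plate, a difference of 2.45. In the control it had 1.36 in interzone and was not well above background in growth plate, so Barx1 lay above growth plate in both genotypes. The secreted glycoprotein gene Dkk3 was higher by 2.05, and the Wnt ligand gene Wnt9a by 1.26, although its other probe gave -0.19.

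Several genes with large steps in the control pair were within 2-fold in the mutant pair. Htra1, a secreted protease gene, had levels of -4.90 in mutant interzone and -5.72 in mutant growth plate, a difference of 0.82, against 0.23 and -5.18 in the control tissues, a difference of 5.41. The hyaluronan synthase gene Has2 differed by -0.07 in the mutant pair and 3.83 in the control pair. Dcx, which encodes doublecortin, differed by 0.73 and 4.24, and Vcan, which encodes the proteoglycan versican, by -0.12 and 3.10. Under normexp Htra1, Has2 and Dcx passed 2-fold in the mutant pair, at 2.66, 1.61 and 2.10. For each of the 4 genes the control interzone was the highest of the 6 arrays. Of the 23 joint genes, 12 had their highest level of the 6 arrays in control interzone and 2 in mutant interzone.

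The joint genes lower in mutant interzone were Wnt16, Lmx1b and Cd44. The ligand gene Wnt16 had levels of -2.72 in mutant interzone and 1.49 in mutant growth plate, a difference of -4.21, against -4.81 and -4.57 in the control tissues. The mutant growth plate was thus the high array for this Wnt ligand. The homeobox gene Lmx1b was lower by 1.26 in mutant interzone and the hyaluronan receptor gene Cd44 by 1.09. At their smallest over the ways of processing these differences were -0.15 and -0.94. Among these joint genes Cd44 was lower in control interzone too by its brightest probe, with a difference of -1.93. The probes of Cd44 did not all go the same way in the control pair.

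Cartilage genes separated the control tissues and, as processed here, did not separate the mutant tissues. Of 26 cartilage genes 25 were measured, and in mutant interzone 5 lay past 2-fold on the higher side and 3 on the lower side, the median difference being 0.13. These shares did not exceed the 21.1% and 18.3% of all genes, whose median was 0.16. In the control pair 1 was higher and 21 lower in interzone, with a median of -1.95. Over the 10 ways of processing that give a list median, the mutant median lay between 0.07 and 0.29. The lowest value came under normexp, where the median of all genes was 0.47. Under that correction 5 of the 25 cartilage genes were higher and 6 lower, where 6085 of 16611 genes were higher and 1762 lower. The control median moved with the scaling between -1.49 and -3.17 and was below 0 each time. The mutant growth plate array had a lower level than the control growth plate array for 25 of 25 cartilage genes, with a median difference of -3.15, and the mutant interzone array had a lower level than the control interzone array for 22 of 25, with a median of -1.07. The growth plate arrays of the 2 genotypes lay on different slides, so that genotype and slide cannot be told apart there. Of the 25 genes, 24 had their highest level of the 6 arrays in control growth plate and 0 in mutant growth plate. This was not particular to cartilage genes. Control growth plate was also the highest array for 22 of 24 cytosolic ribosomal protein genes and 9 of 15 housekeeping genes. Mutant growth plate was below control growth plate for 22 of the 24 ribosomal protein genes, with a median of -0.72, against -3.15 for cartilage genes.

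The matrix genes of chondrocytes lay close together in the mutant tissues. Acan, which encodes the proteoglycan aggrecan, had levels of 0.65 in mutant interzone and 1.5 in mutant growth plate, a difference of -0.85, against 2.73 and 5.31 in the control tissues, a difference of -2.57. The type IX collagen gene Col9a1 had 1.21 and 1.16 in the mutant tissues, against 3.12 and 5.65 in the control tissues. Col9a2, Col9a3, Col11a1 and Hapln1, the last encoding the link protein of the aggrecan complex, differed by 0.58, -0.41, 0.76 and 0.14 in the mutant pair. In the control pair the same genes differed by -1.79, -1.76, -1.95 and -2.80, so each was lower in control interzone and none passed 2-fold in the mutant. The regulator gene Sox9 had 0.61 in mutant interzone and -0.36 in mutant growth plate, against 2.42 and 3.11 in the control tissues, and its 3 probes spanned -0.34 to 0.96 in the mutant pair.

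Some cartilage genes passed 2-fold, in both directions. Matn1, which encodes matrilin-1, was lower in interzone in both genotypes, with -4.79 in mutant interzone and -2.53 in mutant growth plate, a difference of -2.26, against 1.62 and 5.16 in the control tissues, a difference of -3.54. Under the normexp correction the mutant difference of Matn1 was 0.75, so its direction depends on how dim signals were treated. Chst11, a chondroitin sulfotransferase gene, was lower in mutant interzone by 2.69 and in control interzone by 3.25 at its brightest probe. Its other measured probe gave -0.69 in the mutant pair, and its probes did not all go the same way in the control pair. Matn3, a matrilin gene of the growth plate, was on the other side, with -1.18 in mutant interzone and -3.79 in mutant growth plate, a difference of 2.62, against -4.30 in the control pair. The matrilin gene Matn4, the chondromodulin gene Cnmd and the proteoglycan gene Epyc were higher in mutant interzone by 1.5, 1.21 and 1.30. Sox5, a partner of Sox9, was higher by 4.70 through 1 of its 4 probes, the other 3 not being measured, and its relative Sox6 was lower by 1.48.

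Genes of maturing cartilage gave a similar picture at lower levels. Of 13 prehypertrophic and hypertrophic genes 9 were measured, 1 was higher and 2 were lower in mutant interzone, with a median of 0.21, against 2 higher and 6 lower of 11 in the control pair, with a median of -2.39. Among the 3 past 2-fold in the mutant pair, 2 had 2 or more measured probes, and 0 of these had all probes in 1 direction. Ihh, the hedgehog ligand gene of prehypertrophic cells, had levels of -1.0 in mutant interzone and -1.21 in mutant growth plate, against -0.59 and 3.40 in the control tissues, although its other probe gave -3.15 in the mutant pair and the mean over probes -1.47. Col10a1, the collagen gene of hypertrophic cells, had -0.04 and -1.02 in the mutant tissues, against -0.52 and 2.5 in the control tissues. For both genes the control growth plate was the high array by the brightest probe. The mineralised matrix gene Ibsp was at least 388-fold higher in mutant interzone, at a level of 1.09, and Spp1 at least 159-fold higher, at -0.19, and neither was well above background in mutant growth plate. In the control pair Ibsp was at least 14.1-fold higher in interzone, whereas Spp1 was lower there, with a difference of -2.57. The phosphatase gene Alpl was at least 9.42-fold lower in mutant interzone, and its control difference was -7.25. A bound divides the bright reading by the detection limit of the dim array, or by the reading of the gene there if that exceeds the limit.

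**Figure D2:**
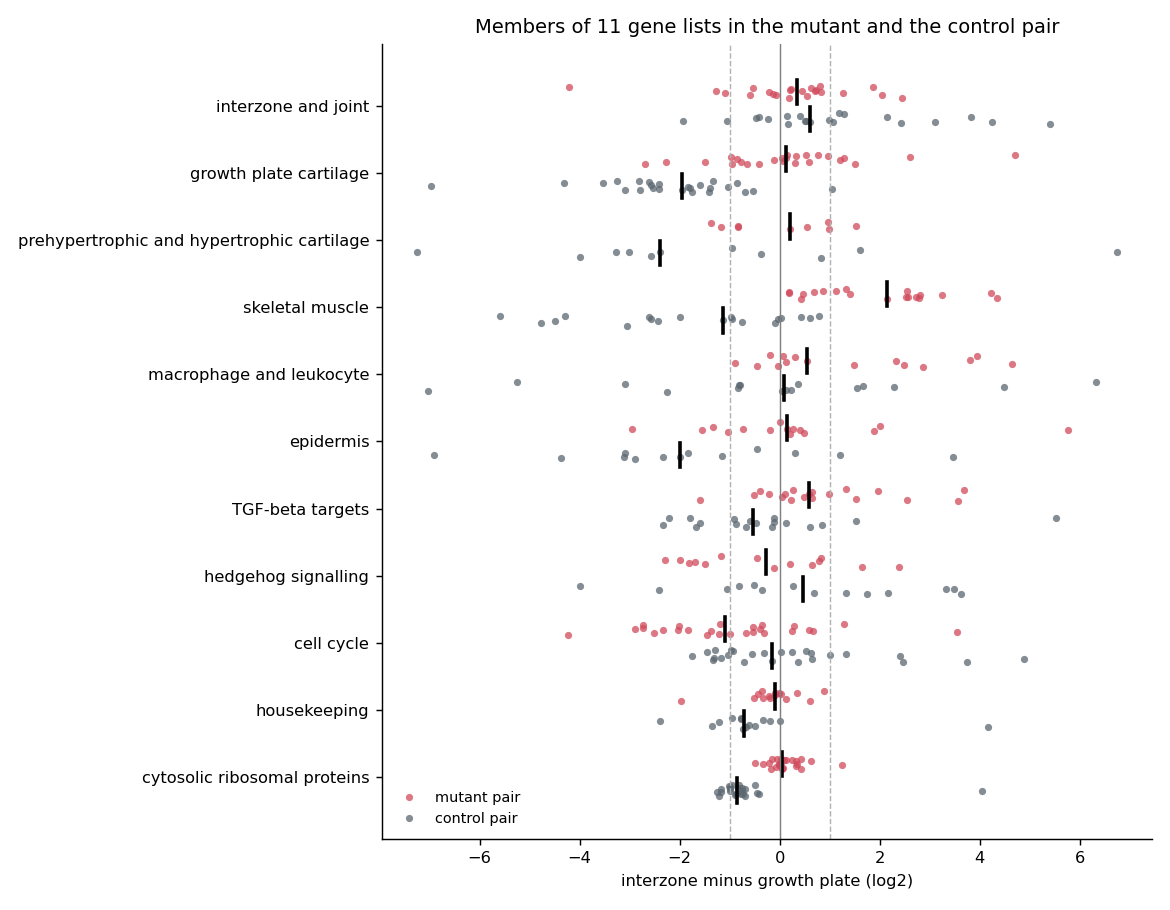
Differences of the measured members of 11 gene lists, interzone minus growth plate on a log2 scale (x axis), in the mutant pair (red, upper row of each list) and the control pair (grey, lower row). Each point is 1 gene, the black bar is the list median and the dashed lines mark 2-fold. Growth plate cartilage genes centre at 0.13 in the mutant pair and at -1.95 in the control pair, and skeletal muscle and cell cycle genes centre past 2-fold in opposite directions in the mutant pair.

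Across all genes the tissue difference of the mutant did not follow that of the control. The pairs share no array, and over the 15622 genes measured on all 4 arrays Pearson's r between their differences was -0.03 and Spearman's rho -0.01, where genes are not independent replicates. Among the 9891 genes that were bright in both pairs r was -0.04. Of the 3222 genes higher in mutant interzone, 973 (30.2%) were higher in control interzone as well, which is 24.6% of the control's 3950 and 6.23% of all genes compared. For comparison, 25.3% of all genes measured on the 4 arrays were higher in control interzone. Of the 2733 genes lower in mutant interzone, 744 (27.2%) were also lower in control interzone, or 20.5% of the control's 3623 and 4.76% of all genes compared, where 23.2% of all were. Genes past 2-fold in opposite directions were as many, with 812 (5.2%) higher in mutant and lower in control interzone and 952 (6.09%) the reverse. Of the same genes 20.6% were higher and 17.5% lower in mutant interzone. These overlap counts rest on the scaling of the control growth plate array: with each array centred on its median, the median of all genes in the control pair was -1.33, and the counts in the order given became 575, 1263, 2175 and 528.

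**Figure D3:**
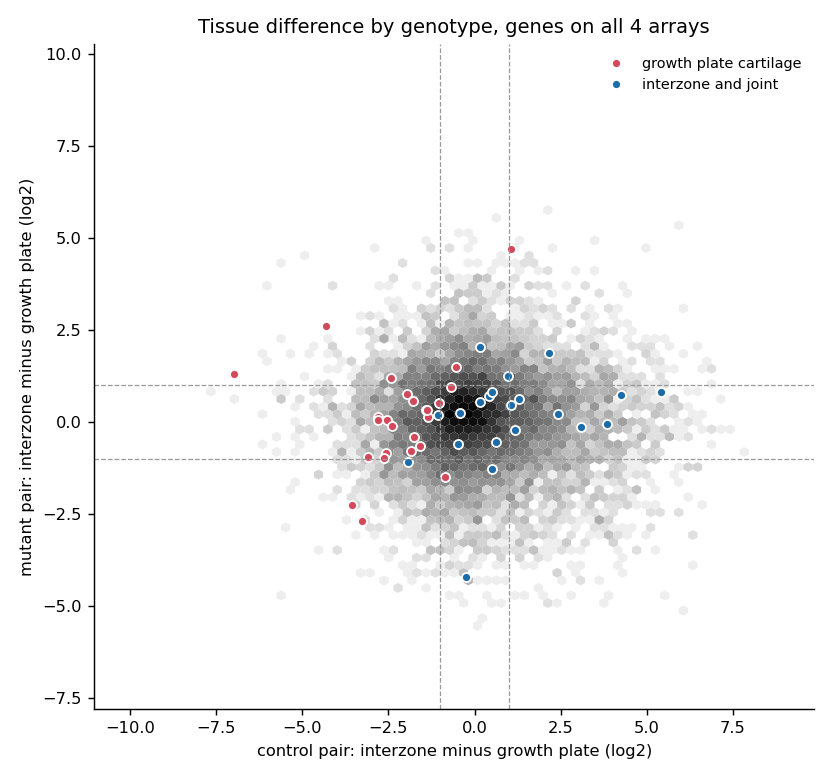
Interzone minus growth plate differences (log2) of 15622 genes, in the control pair on the x axis and the mutant pair on the y axis, with darker cells holding more genes on a log count scale. Red points are growth plate cartilage genes and blue points interzone and joint genes, and dashed lines mark 2-fold. The cartilage genes spread to the left, lower in control interzone, and gather around 0 on the mutant axis, where r over all genes is -0.03.

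Among genes that kept their direction, the growth factor gene Fgf9 and the metalloprotease gene Adamts15 showed nearly equal steps in the 2 genotypes as scaled here. Centring each array on its median makes every control difference lower and every mutant difference higher. Fgf9 had levels of -1.24 in mutant interzone and -5.59 in mutant growth plate, a difference of 4.35, against 0.78 and -3.63 in the control tissues, a difference of 4.41. Adamts15 had 0.57 and -6.49 in the mutant tissues, a difference of 7.06, against 2.09 and -5.38 in the control tissues, a difference of 7.47. In both, the 2 interzone arrays and the 2 interdigital arrays were high and the 2 growth plate arrays low. The growth factor gene Fgf18, which acts on chondrocytes, was higher by 2.03 in mutant and 5.64 in control interzone. The homeobox genes Msx1 and Lhx2 were higher by 3.27 and 2.61 in mutant interzone and by 4.46 and 5.52 in control interzone. The ligand gene Pthlh, which encodes parathyroid hormone-related protein, was higher by 1.65 in the mutant pair and 3.33 in the control pair, with both probes higher in the mutant pair. Other leading genes of that kind were Nudt8, Zfp956, Sapcd1, Cstf2t and Ascc1, higher by 6.53, 5.44, 5.35, 5.29 and 4.75 in the mutant pair and by 4.78, 6.31, 5.33, 5.99 and 5.30 in the control pair.

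Genes that kept a lower level in interzone included Gramd1c, Kctd4, Gnat1 and Erich2. Gramd1c, a lipid transfer gene, had levels of -6.03 in mutant interzone and -1.30 in mutant growth plate, a difference of -4.74, against -5.53 and 0.11 in the control tissues. Erich2 was lower by 4.51 and its 3 measured probes all lay at -3.79 or lower. The size of these mutant differences depended on the processing. At their smallest they were -0.57 for Gramd1c and -0.75 for Erich2, both within 2-fold, -1.27 for Kctd4 and -2.47 for Gnat1. Kif20b, a kinesin gene of dividing cells, gave differences of -3.94 in the mutant pair and -6.15 in the control pair.

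Skeletal muscle genes were higher in the mutant interzone array. Of 19 measured, 13 exceeded growth plate by 2-fold or more and 0 fell below it by as much, and the median was 2.14, where 21.1% of all genes were higher. The median lay between 1.41 and 2.54 over the 10 ways of processing. In the control pair 0 were higher and 10 lower in interzone, with a median of -1.13. Myog, the regulator of muscle differentiation, had levels of 1.22 in mutant interzone and -3.01 in mutant growth plate, a difference of 4.23, against -3.78 and 1.82 in the control tissues. The myosin light chain gene Mylpf had 3.56 and 1.04 in the mutant tissues, against -0.30 and 4.47 in the control tissues. For both genes the high arrays were the mutant interzone and the control growth plate. The log2 of the summed signals of the list was 6.07 in mutant interzone and 4.53 in mutant growth plate, against 4.49 and 6.43 in the control tissues. The cardiac actin gene Actc1, the troponin gene Tnni1 and the embryonic myosin gene Myh3 were higher in mutant interzone by 2.14, 3.25 and 2.73. The regulator gene Myod1 was measured at 3.96 and 3.28 in the mutant tissues, within 2-fold, and Myf5 was not well above background on any array. The part of muscle cells in the other differences was not tested. In these samples more cells of a type and more RNA per cell cannot be told apart.

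Some macrophage genes were also higher on the mutant interzone array. Of 15 measured, 7 were higher in mutant interzone, 0 lower and 8 within 2-fold, where 21.1% of all genes were higher and 18.3% lower, and the median was 0.56, against 5 higher and 4 lower of 16 in the control pair. The growth factor receptor gene Csf1r had levels of 0.39 in mutant interzone and -3.55 in mutant growth plate, and all 3 of its probes were higher. The complement genes C1qa and C1qb were higher by 2.32 and 2.48, the Fc receptor gene Fcer1g by 2.87 and the macrophage antigen gene Adgre1 by 3.80. Mrc1, the mannose receptor gene, was at least 75.4-fold higher, while C1qc differed by -0.20 and Cd68 by -0.45. The pan-leukocyte gene Ptprc was at -6.14 in mutant interzone and not well above background in mutant growth plate. The list median lay between 0.52 and 2.32 over the 10 ways of processing, and the log2 of the summed signals was 4.42 in mutant interzone and 2.95 in mutant growth plate, against 2.83 and 4.08 in the control tissues. Their part in the other differences was not tested.

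Epidermal genes were high in both mutant tissues and differed in both directions. Of 15 measured, 3 were higher and 4 lower in mutant interzone, with a median of 0.15 that turned to -0.17 under normexp. The keratin gene Krt10 had levels of 5.48 in mutant interzone and 5.47 in mutant growth plate, against -3.04 and 3.88 in the control tissues, and Krt1 had 5.45 and 5.24 in the mutant tissues, against -0.56 and 3.80 in the control tissues. The desmosome gene Dsp stood at 4.71 and 4.23 in the mutant tissues, against 0.95 and 3.28 in the control tissues. The summed list signal was 7.83 in mutant interzone and 7.86 in mutant growth plate, against 4.73 and 6.75 in the control tissues. Within the list, the basal keratin gene Krt5 and the adhesion gene Epcam were lower in mutant interzone by 1.33 and 2.96, and the simple-epithelium keratin genes Krt8 and Krt18 were higher by 2.00 and 1.88. The part of epidermal cells in any difference was not tested.

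Blood, vessel and nerve genes gave mixed results. Of 11 erythroid genes 2 were higher and 0 lower in mutant interzone, with a median of 0.66, and the globin gene Hba-a1 had 6.84 and 6.23 in the mutant tissues, against 7.30 and 7.93 in the control tissues. Of 16 endothelial genes 5 were higher and 5 lower. The junction gene Cldn5 and the adhesion gene Pecam1 were lower by 1.91 and 1.41, and Flt4, a lymphatic receptor gene, was higher by 4.08. Of 12 nerve and Schwann cell genes 4 were higher and 3 lower, with the neurotrophin receptor gene Ngfr higher by 3.40 and the myelin gene Mbp lower by 3.13.

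**Figure D4:**
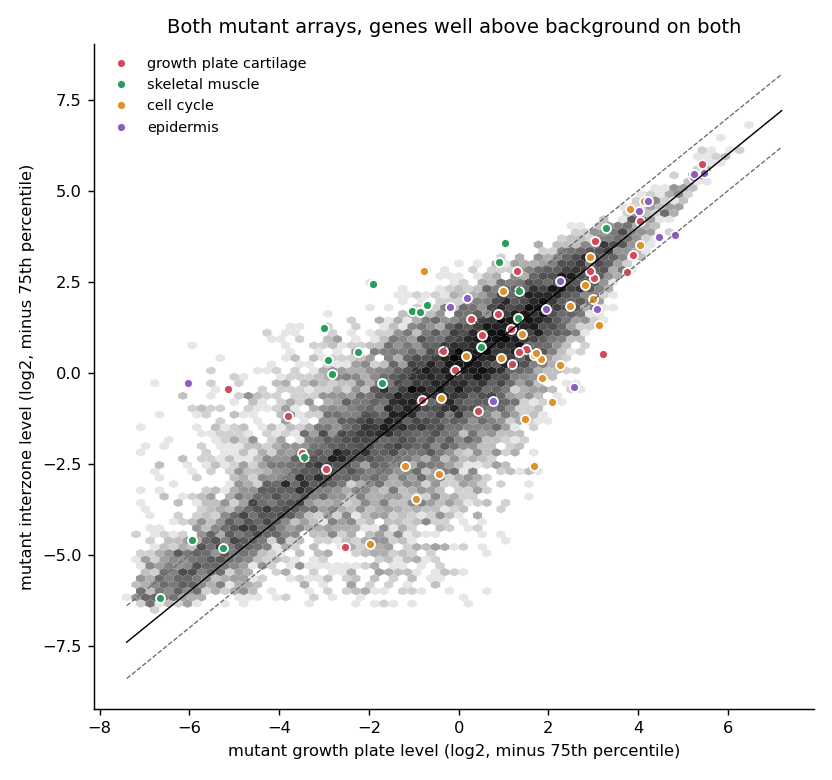
Levels of 16611 genes on the mutant growth plate array (x axis) and the mutant interzone array (y axis), each as log2 signal minus the array's 75th percentile, with darker cells holding more genes on a log count scale. Coloured points are members of 4 lists, the solid line marks equal levels and the dashed lines 2-fold. Muscle genes lie above the line and most cell cycle genes below it, while cartilage and epidermal genes scatter to both sides, with 8 of 25 and 7 of 15 past 2-fold.

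Many genes of cell division were lower in mutant interzone. Of 26 genes on both arrays, 13 lay below growth plate by 2-fold or more and 2 above, and the median was -1.08, where 18.3% of all genes were lower. In the control pair 7 of 25 were lower and 6 higher, with a median of -0.15. The proliferation antigen gene Mki67 had levels of 1.30 in mutant interzone and 3.13 in mutant growth plate, a difference of -1.82, against 2.32 and 2.63 in the control tissues. The anaphase activator gene Cdc20 had -1.26 and 1.48 in the mutant tissues, a difference of -2.74, against 0.92 and -0.41 in the control tissues. The spindle checkpoint gene Bub1b had -2.56 and 1.67, a difference of -4.23, against 0.72 and -0.29. For each of the 3 genes the mutant interzone was the lowest of the 6 arrays, as it was for 15 of the 26 genes of the list.

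The mitotic kinase genes Plk1, Aurka and Bub1 were lower by 2.04, 2.32 and 2.51, and the cyclin genes Ccnb1, Ccnb2 and Ccna2 by 1.21, 1.18 and 1.46. The difference of Bub1 was -0.72 at its smallest over the ways of processing. Cdk1 was lower by 2.89 at its brightest probe and higher by 1.86 at the other. The replication helicase genes Mcm2, Mcm3 and Mcm7 gave -0.67, -0.54 and -0.99, within 2-fold, and Mcm5 was higher by 1.28. The other member higher was Cdkn1a, which encodes the cell cycle inhibitor p21, with levels of 2.78 in mutant interzone and -0.77 in mutant growth plate, a difference of 3.55, against -0.42 and 0.92 in the control tissues. The mutant interzone was the highest of the 6 arrays for Cdkn1a. Over the 10 ways of processing the list median lay between -1.15 and -0.85.

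Most ligands and target genes of the TGF-beta pathway lay within 2-fold, and those past it were mainly higher in mutant interzone. Of 9 measured ligand and latency genes 3 were higher, 0 lower and 6 within 2-fold, the median being 0.75, where 21.1% of all genes were higher and 18.3% lower. The ligand gene Tgfb2 had levels of 0.06 in mutant interzone and -4.09 in mutant growth plate, a difference of 4.16, and in the control it had -1.28 in interzone and was not well above background in growth plate. Tgfb3 was measured at 1.15 and 0.49 in the mutant tissues, a difference of 0.66, against 2.29 and -1.08 in the control tissues, a difference of 3.37. Of 19 target genes 6 were higher, 1 lower and 12 within 2-fold, with a median of 0.60, against 2 higher and 5 lower of 18 in the control pair, with a median of -0.53. The matrix gene Tgfbi was higher by 3.57 and the matricellular gene Ccn2 by 2.54. The feedback gene Skil and the activin antagonist gene Fstl3 were higher by 1.97 and 1.34, each of the named higher targets through 1 measured probe. Ccn1 was lower by 1.60, but higher by 0.52 under normexp. Under that correction 5 of the 19 targets were higher and 0 lower, with a median of 0.52 beside 0.47 for all genes. Of all 16611 genes 6085 were then higher.

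Promoters were available in RefSeq for Fgf9, Tgfb2, Tgfbi and Fstl3, which were all higher in mutant interzone, and are shown here. Fgf9 kept its direction in both pairs and is not in the joint list, and the others belong to the TGF-beta lists. Each runs from 250 bases before to 50 bases after the annotated start in GRCm38.p6, in the sense of the gene. Capitals mark the letters CAGAC or their reverse complement GTCTG, the core of a Smad-binding sequence. Fgf9 lies on the plus strand at chr14:58072436-58072735, Tgfb2 on the minus strand at chr1:186705940-186706239, Tgfbi on the plus strand at chr13:56609336-56609635 and Fstl3 on the plus strand at chr10:79777024-79777323.
Fgf9: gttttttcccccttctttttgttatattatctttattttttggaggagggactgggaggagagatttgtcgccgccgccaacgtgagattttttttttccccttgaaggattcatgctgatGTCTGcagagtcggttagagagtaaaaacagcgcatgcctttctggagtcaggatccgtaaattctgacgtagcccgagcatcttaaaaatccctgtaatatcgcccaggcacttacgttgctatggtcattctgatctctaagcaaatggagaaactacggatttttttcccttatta
Tgfb2: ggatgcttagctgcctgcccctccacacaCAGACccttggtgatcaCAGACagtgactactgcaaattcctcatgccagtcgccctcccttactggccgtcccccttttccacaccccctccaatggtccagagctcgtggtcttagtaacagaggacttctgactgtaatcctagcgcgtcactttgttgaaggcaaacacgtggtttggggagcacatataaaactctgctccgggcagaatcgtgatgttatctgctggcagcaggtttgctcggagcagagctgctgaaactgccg
Tgfbi: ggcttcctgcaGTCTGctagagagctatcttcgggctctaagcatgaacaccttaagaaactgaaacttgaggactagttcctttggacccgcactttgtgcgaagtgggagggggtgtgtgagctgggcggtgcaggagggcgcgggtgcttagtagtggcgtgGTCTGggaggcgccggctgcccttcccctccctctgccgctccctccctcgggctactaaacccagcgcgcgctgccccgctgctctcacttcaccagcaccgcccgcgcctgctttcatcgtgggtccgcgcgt
Fstl3: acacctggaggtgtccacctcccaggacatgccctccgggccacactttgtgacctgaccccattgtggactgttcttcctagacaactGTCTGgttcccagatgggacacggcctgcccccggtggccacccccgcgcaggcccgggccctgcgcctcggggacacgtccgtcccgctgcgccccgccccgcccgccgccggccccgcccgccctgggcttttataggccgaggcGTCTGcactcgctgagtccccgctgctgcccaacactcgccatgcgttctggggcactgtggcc
The letters occur 1 time in the Fgf9 window and 2 times in each of the others, on either strand. Among all 32851 RefSeq promoters 49.6% hold them, so a match describes the letters of these windows and no more.

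Receptors and transducers of the pathway went both ways. Of 14 measured, 5 were higher and 2 lower in mutant interzone, with a median of 0.33. The receptor gene Tgfbr1 was measured at 0.16 in mutant interzone and 0.76 in mutant growth plate, the transducer gene Smad3 at 0.50 and 0.45 by its brightest probe, and the corepressor gene Ski at 3.40 and 3.57. The activin receptor gene Acvr2b was lower by 1.77, though its difference was -0.835 at its smallest over the ways of processing. Smad7 was not well above background on any array.

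BMP ligand genes went both ways. Of 10 measured BMP and GDF genes 2 were higher and 3 lower in mutant interzone, with a median of -0.41 that turned to 0.23 under normexp. Bmp2 had levels of -2.90 in mutant interzone and 0.46 in mutant growth plate, a difference of -3.35, against -1.0 and -5.23 in the control tissues, a difference of 4.23. Bmp7 and Bmp4 were lower by 1.72 and 1.18, and Bmp3 was higher by 1.56. As scaled here, the BMP response genes Id1 and Id4 were higher in interzone in both genotypes, by 1.08 and 2.28 in the mutant pair and 1.1 and 1.21 in the control pair. With arrays centred on their medians, which moved the control median of all genes from -0.10 to -1.33, both control steps fell within 2-fold. Id2 and Id3 differed by 0.44 and 0.28 in the mutant pair. Of 13 BMP and activin antagonists 4 were higher and 3 lower. Chrdl1, Chrdl2 and Bmper, which encode extracellular BMP modulators, were higher by 3.85, 2.14 and 3.13. Sostdc1 was lower by 3.51 in mutant interzone and higher by 4.59 in control interzone, and Nog, the noggin gene, was measured at 0.23 and 0.04 in the mutant tissues.

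The hedgehog response genes Ptch1 and Gli1 were lower in mutant interzone, while the brightest probe of the cartilage ligand gene Ihh was level. Of 14 measured hedgehog genes 6 were lower and 2 higher, where 18.3% of all genes were lower and 21.1% higher, and the median was -0.28. The receptor and target gene Ptch1 had levels of -1.0 in mutant interzone and 0.50 in mutant growth plate, a difference of -1.5, against 1.01 and 0.74 in the control tissues. Gli1, the transcription factor gene most directly induced by the pathway, had -0.87 and 0.81, a difference of -1.69, against 0.49 and 1.55 in the control tissues. Both probes of Ptch1 were lower, and Gli1 had 1 probe. Gli2 was lower by 1.98 at its brightest probe and higher by 0.39 at the other. The coreceptor gene Gas1 was lower by 1.18 and Shh, at levels of -6.12 and -3.82, by 2.30, but Shh was higher by 1.65 under normexp.

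The Wnt response genes Lef1 and Axin2 were lower in mutant interzone. Lef1, a transcription factor of the pathway and one of its targets, had levels of -0.73 in mutant interzone and 3.38 in mutant growth plate, a difference of -4.11, against 0.92 and 1.43 in the control tissues. All 3 of its probes were lower, by 2.78 or more. The feedback gene Axin2 was lower by 2.54, though its difference was -0.24 at its smallest over the ways of processing. The receptor genes Fzd4 and Fzd7 were lower by 3.02 and 3.50, Fzd4 turning to 0.34 under normexp. Of 13 receptors and responses measured 4 were lower (30.8%) and 3 higher (23.1%), where 18.3% of all genes were lower and 21.1% higher. The median was -0.48, and Fzd9 and Ror2 were higher by 3.59 and 2.43. Among 9 secreted antagonists 3 were lower and 1 higher. Dkk1 had -0.75 and 2.08 in the mutant tissues, a difference of -2.83, against -3.50 and -2.79 in the control tissues, and both probes were lower. Wif1 was lower by 2.05 in mutant interzone and higher by 4.57 in control interzone, and Frzb was lower by 1.61 and 6.71. At their smallest over the ways of processing the mutant differences of Wif1 and Frzb were -0.59 and -0.41. Of 13 Wnt ligand genes 3 were higher and 4 lower, with Wnt10a and Wnt3, known from epidermis, lower by 1.82 and 1.17 and Wnt7a and Wnt5a higher by 1.73 and 1.24. The mutant growth plate was the high array for Lef1, Dkk1 and Wnt16.

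**Figure D5:**
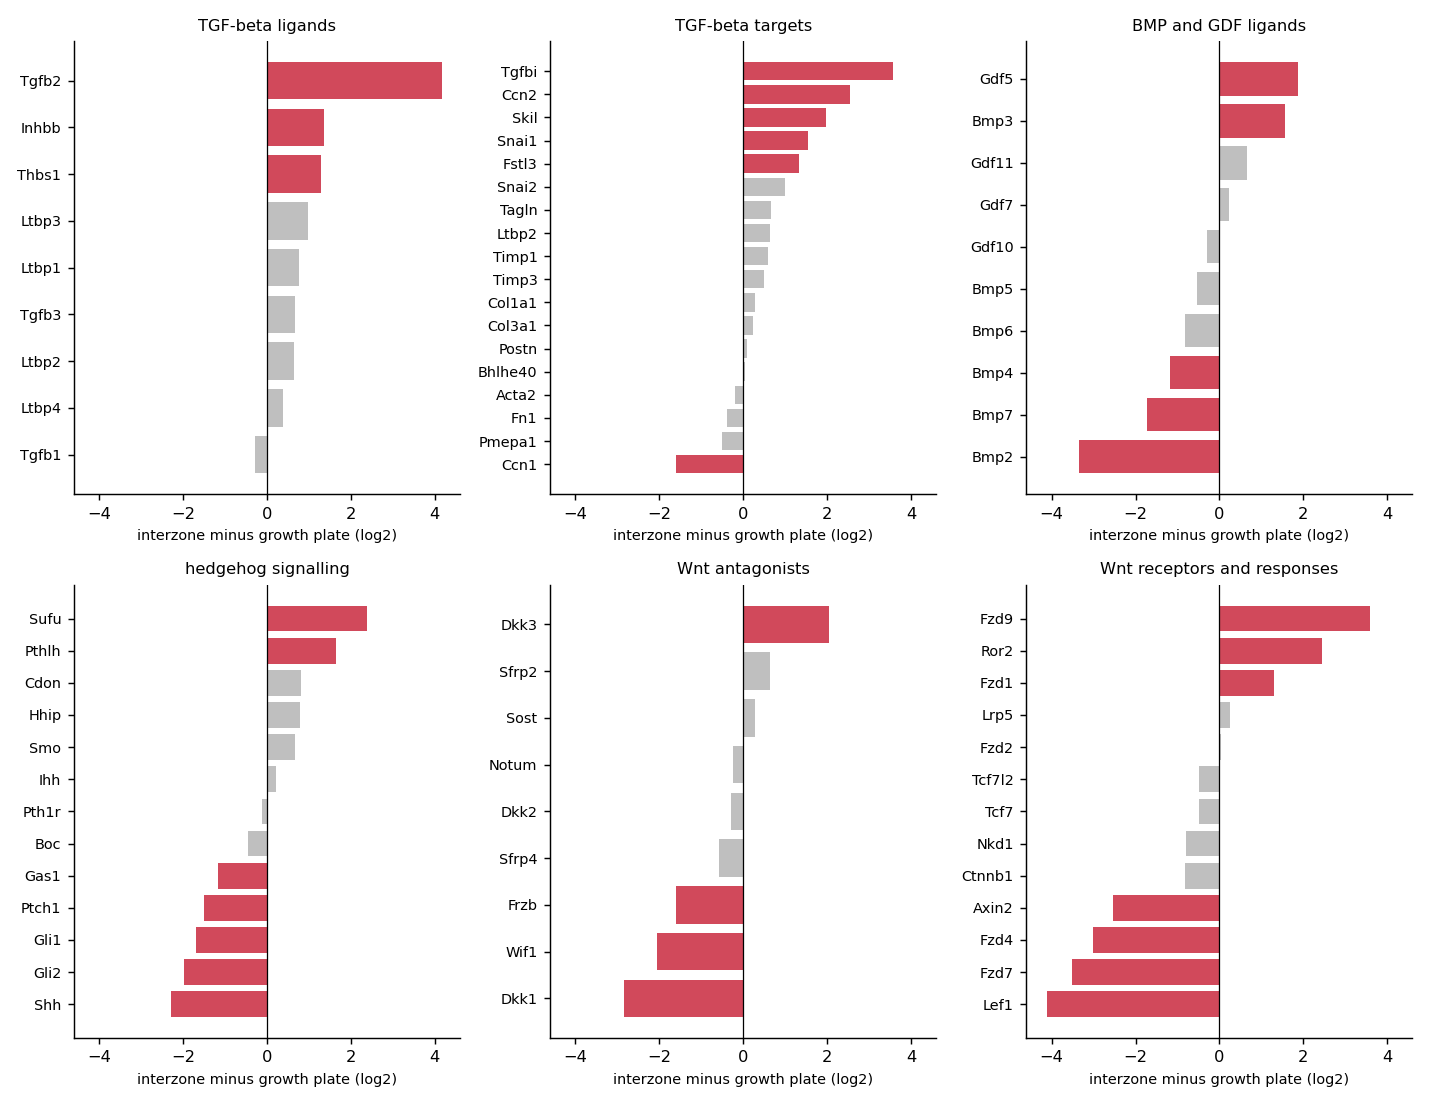
Mutant interzone minus mutant growth plate differences (log2, x axis) of measured members of 6 signalling lists (y axis, 1 bar a gene). Red bars pass 2-fold and grey bars do not. As processed here, TGF-beta ligands and targets lean to the right, with Tgfb2 at 4.16 and Tgfbi at 3.57. Under normexp the target median of 0.52 stands beside 0.47 for all genes. The hedgehog genes Ptch1 and Gli1 and the Wnt genes Lef1, Axin2 and Dkk1 lie to the left.

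FGF and Notch genes differed in both directions. Of 17 FGF genes 3 were higher and 6 lower in mutant interzone, with a median of -0.39 that turned to 0.03 under normexp. Beside Fgf9 and Fgf18, Fgf10 was higher by 1.12. The decoy receptor gene Fgfrl1 had levels of -4.25 in mutant interzone and 0.16 in mutant growth plate, a difference of -4.41, against 3.25 and 3.41 in the control tissues, and the feedback genes Spry1 and Dusp6 were lower by 2.12 and 1.59. Of 14 Notch genes 3 were higher and 5 lower, with a median of -0.14 that turned to 0.24 under normexp. The effector gene Hes1 had -0.39 and 2.71 in the mutant tissues, a difference of -3.10, against 1.70 and -4.52 in the control tissues. The ligand genes Dll1 and Jag2 were lower by 3.95 and 2.31, and Notch4, a receptor gene of vessels, was higher by 5.03. The difference of Dll1 was -0.58 at its smallest over the ways of processing.

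Transcription factors of the limb differed in both directions. Of 23 limb homeobox genes 6 were higher and 6 lower, with a median of 0.16. Hoxa13 had levels of 1.25 in mutant interzone and 1.47 in mutant growth plate, and its other probe differed by -4.65. Hoxd13 had 2.65 and 2.34 in the mutant tissues, against 3.75 and 3.24 in the control tissues. Shox2, a regulator of proximal limb growth, was higher by 1.48 in mutant interzone and lower by 6.82 in control interzone. Meis1 was lower by 3.83 at its brightest probe, and both its probes were lower. Its difference was -0.29 at its smallest over the ways of processing. The hindlimb regulator gene Pitx1 was at least 191-fold higher in mutant interzone, where it had a level of 0.07. The forelimb and hindlimb genes Tbx5 and Tbx4 differed by 1.13 and 0.35, and the other Tbx5 probe by -0.32. Tbx3 was higher by 5.67 and Tbx18 lower by 2.78, though the difference of Tbx18 was -0.88 at its smallest over the ways of processing. As scaled here, Sox4 and Zeb1 were higher in interzone in both genotypes, by 1.98 and 1.36 in the mutant pair and 1.84 and 1.33 in the control pair. With arrays centred on their medians, both control steps fell within 2-fold.

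Matrix genes of fibrous tissue were level between the mutant tissues. Of 19 measured, 1 was higher and 1 lower, with a median of 0.23, and Col1a1 had 5.43 and 5.15, against 5.61 and 5.72 in the control tissues. Of 11 small leucine-rich proteoglycan genes 4 were higher and 4 lower, with a median of 0.25, against -4.05 in the control pair. The keratocan gene Kera had levels of 0.23 in mutant interzone and -5.91 in mutant growth plate, a difference of 6.14, against -3.49 and 1.5 in the control tissues, a difference of -4.99. Dcn, the decorin gene, was lower by 1.13 in mutant interzone and by 4.96 in control interzone. The tendon regulator gene Scx was measured at 0.56 and 0.09 in the mutant tissues. Of 18 protease and inhibitor genes 3 were higher and 2 lower. Adamts4 was lower by 2.95, though its difference was -0.24 at its smallest over the ways of processing.

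Broadly expressed genes were level in the mutant pair. Of 15 housekeeping genes 0 were higher and 1 lower, with a median of -0.09, and of 24 cytosolic ribosomal protein genes 1 was higher and 0 lower, with a median of 0.04. In the control pair the same medians were -0.70 and -0.85, and the control cartilage median of -1.95 stands beside that shift. The mutant medians changed sign with the scaling, to 0.06 for housekeeping genes with arrays centred on the median and to -0.13 for ribosomal protein genes under normexp. Of 18 hypoxia and glycolysis genes 4 were higher and 0 lower, led by the adrenomedullin gene Adm at 4.99. Of 14 immediate early and stress genes 3 were higher and 2 lower, with Egr1 and Dusp1 higher by 2.14 and 1.76 and Fos and Atf3 lower by 3.02 and 2.55. Of 9 chemokine genes 1 was higher and 3 lower.

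The largest single differences involved dim readings. The 15 genes furthest above growth plate in mutant interzone were higher by 6.80 to 8.62, and their growth plate levels lay between -7.10 and -5.60. Ppp1r36, a phosphatase regulatory subunit gene, led with 1.70 in mutant interzone and -6.92 in mutant growth plate, against -3.36 and 2.77 in the control tissues. The glycosyltransferase gene Mgat4a was higher by 8.06, the ribokinase gene Rbks by 7.66 and the sarcomere gene Actn2 by 7.65. The 15 genes furthest below were lower by 6.09 to 6.97, with interzone levels of -6.34 to -5.27. Among them Ttc27, the nucleolar gene Nifk, the heparan sulfate sulfotransferase gene Hs2st1, the neurotrophin gene Ntf3 and the chromatin remodeller gene Hells were lower by 6.97, 6.84, 6.55, 6.42 and 6.22. Of these, 13 of the 15 higher genes and 12 of the 15 lower genes were measured by 1 probe. Over all genes past 2-fold with 2 or more measured probes, 1263 of 2397 (52.7%) had all probes in 1 direction.

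Of 19512 genes on the array, 397 were seen on the mutant interzone array only and 918 on the mutant growth plate array only. The lowest level well above background was -6.51 on the mutant interzone array and -7.51 on the mutant growth plate array. The 2 arrays thus did not detect equally dim genes, and the part of this in the counts was not tested. The brightest genes seen in interzone only included Fam221b, at least 961-fold higher, the Hox gene Hoxb7, at least 395-fold, and the albumin gene Alb, at least 324-fold. Alb was not well above background on any other array. In growth plate the sarcomere gene Tmod4, the kinase gene Rps6ka3 and the DNA repair gene Brca1 led, and were at least 309-fold, 276-fold and 215-fold lower in mutant interzone.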

How the data were processed

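The scanner files hold 1-colour spot intensity values that, per the file headers, the authors obtained with Agilent Feature Extraction, including its background subtraction. The deposited table holds the ratio of each processed signal to the median of its array. Levels were log2 processed signals minus the 75th percentile of non-control spots, with outlier spots left out and spots of a probe averaged (R 4.3.3, limma 3.58.1, Python 3.11.15). Of 41174 probes, 23075 were named by accession, 6582 by symbol and 3077 by older symbol from RefSeq GRCm38.p6, and 8440 had no match. Each gene was represented by its brightest probe on average. Titles set the groups, since 5 sample descriptions name another organism and treatment. A difference was called at 2-fold between probes well above background on both arrays. Genes were named from 36 lists, as the 15 largest differences, 8 bounds, 10 kept and 5 turned genes in each direction. Some genes count in their lists but are not reported here by name or drawn as bars. Members and lists were chosen with earlier results of these data known. With 1 array a group no statistical test was run, and precision is limited by the number of arrays. The alternatives were 10 other settings.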

Additional observations from a re-analysis of the deposited data

Results flagged for a closer look

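The following results went in opposite directions in the mutant and control pairs, and with 1 array a group the difference between the pairs was not tested. Ppp1r36 was higher in mutant interzone by 8.62, against a difference of -6.13 in the control pair. Kera, the keratocan gene, gave 6.14 and -4.99. Laptm5, a lysosomal membrane gene of blood cells, gave 4.64 and -7.02, Fbxo39 gave 4.6 and -4.91, and the receptor gene Mas1 gave 4.59 and -6.43. On the other side Chst5, a sulfotransferase gene, gave -5.82 in the mutant pair and 6.15 in the control pair, and Ackr4, a chemokine scavenger receptor gene, gave -5.43 and 8.07. Hs2st1 gave -6.55 and 5.37, Dph5 gave -6.22 and 5.32, and the neurotrophin gene Ntf5 gave -5.41 and 5.18. The median of the skeletal muscle list was 2.14 in the mutant pair and -1.13 in the control pair.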

How the results depend on the processing

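Of 137 named genes past 2-fold, 4 changed sign under 1 or more of the 10 alternatives, all under normexp, and 12 of the 37 named genes within 2-fold did so. Under normexp Ccn1 gave 0.52, Fzd4 0.34, Matn1 0.75 and Shh 1.65. Sizes changed for more genes, judged against the median SD of 0.98 between probes of a gene. Of 174 named genes 51 moved under normexp without changing sign, and 15 moved with probes of a gene averaged. At their smallest the differences of Ttc27, Hells and Ntf3 were -2.63, -1.84 and -1.92. List medians that changed sign under normexp were those of interdigital mesenchyme (0.53), epidermis (-0.17), BMP and GDF ligands (0.23), Wnt ligands (-0.0025), FGF (0.0277), Notch (0.24) and ribosomal protein genes (-0.13). With probes of a gene averaged, prehypertrophic cartilage gave -0.33, interdigital mesenchyme 0.16, endothelium -0.26 and immediate early genes -0.12. Centring on the median, and the deposited table, gave 0.0164 for Notch and 0.0643 for housekeeping genes, and quantile normalization gave -0.0715 for ribosomal protein genes. Normexp called 6085 genes higher and 1762 lower in mutant interzone, with 456 lower in both pairs and 514 lower in mutant but higher in control interzone. Quantile normalization gave 1327 higher in mutant and lower in control interzone. Centring on the median, and the deposited table, gave 575 higher in both, 1263 lower in both, 2175 higher in mutant and lower in control, and 528 the reverse. Requiring a bright array gave 2295 higher, 568 higher in both, 540 higher in mutant and lower in control, and 631 the reverse. At 4-fold the counts were 1294 higher, 1367 lower, 242 and 165 kept, and 173 and 348 opposite. The cause of these shifts was not tested, apart from the stricter limits, which call fewer genes by construction. No paired analysis was possible because each group has 1 array, and for the same reason no array could be left out. Signals near background limit the dim genes.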
